A study of Homo sapiens with 24 samples.

Results

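The stage change of cHAR123 cells was described from 6 of the 24 libraries, the 3 libraries labelled as cHAR123 hESCs (day 0) and the 3 labelled as cHAR123 neuroectoderm (day 5). The members were chosen by these labels alone, and all 61551 genes with a usable entry were considered. cHAR123 cells are H9 (WA09) human embryonic stem cells (hESCs), an established line, in which HAR123, an enhancer that lies within the SMG6 gene on chromosome 17, was replaced by its chimpanzee ortholog. The other genotypes of the series are unedited H9 cells (hHAR123), cells from which HAR123 was deleted (HAR123-KO), and cells with the mouse ortholog (mHAR123), each with 3 libraries per stage. All hESC libraries came from cells kept in StemFlex medium on Matrigel, with 0 ng/ml Noggin and 0 µM SB431542. All neuroectoderm libraries came from cells grown for 5 days in KnockOut DMEM with KnockOut serum replacement, 500 ng/ml Noggin (a BMP antagonist) and 10 µM SB431542 (an inhibitor of Activin and Nodal receptors). Stage, medium, cell density, days in culture and the 2 added agents cannot be told apart. P-values, over 3 libraries a stage, measure only the spread between these libraries, which may be technical. The study used 2 clones per genotype for RNA-seq, so the 3 libraries of a group cannot all come from separate clones. The clone behind each library is not given in the sources used here.

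Pluripotent stem cells are held in their state by a small circuit of transcription factors, POU5F1 (OCT4), NANOG and SOX2, and in culture they depend on FGF and Activin or Nodal signalling. Blocking the SMAD branches that BMP and Activin or Nodal use turns them towards neuroectoderm, the epithelium from which the brain, spinal cord and, at its border, the neural crest arise. On that route NANOG and POU5F1 fade, SOX2 is kept, and PAX6, SOX1 and HES5 come on.

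The 6 libraries were deep and close to one another within a stage. Total counts ran from 26620784 to 30650685 in the hESC libraries and from 22303658 to 24986111 in the neuroectoderm libraries, and the common biological coefficient of variation was 0.0255. Euclidean distances between library profiles of log2 CPM (counts per 1000000 counts of the library, without regard to gene length) were 49.9 to 53.0 within a stage and 252 to 254 between stages. Before the results, a mismatch of labels has to be stated. In hESCs the study's own gene tables for cHAR123 and mHAR123 had base means that matched the count columns of the same name, for 87 of 87 and 143 of 143 genes within a relative tolerance of 0.001. In neuroectoderm the cHAR123 table matched the columns labelled mHAR123 for 117 of 117 genes and those labelled cHAR123 for 2 of 117, and the mHAR123 table matched the columns labelled cHAR123 for 114 of 114 genes. The count columns were used as labelled, and each result was also computed with the mHAR123-labelled neuroectoderm columns in their place.

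Genes that differed between the 2 labels at both stages bear on this directly. Between the libraries labelled cHAR123 and mHAR123, 33 of 20950 genes were called in hESCs and 55 of 21108 in neuroectoderm, and of 23 genes called in hESCs and tested in neuroectoderm 22 kept their sign with the columns as labelled and 1 did not. The 14 genes called at both stages all kept it. The clearest was H4C13, one of the replication-dependent H4 histone genes (GRCh38 chr6:27873148-27873534). It had 1.84, 2.10 and 1.27 CPM in the cHAR123 hESC libraries and 0.0800, 0.127 and 0.224 CPM in the libraries labelled cHAR123 neuroectoderm. In the libraries labelled mHAR123 it had 72.1, 69.4 and 69.5 CPM in hESCs and 37.3, 38.8 and 37.0 CPM in neuroectoderm, so the low level followed the label cHAR123 through both stages, with the limit that near-identical histone genes could share reads. Levels in hHAR123 and HAR123-KO cells were 68.0 to 74.1 CPM in hESCs and 31.2 to 51.9 CPM in neuroectoderm.

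The labelled stages were checked against 12 defining markers, and the pluripotency markers POU5F1 and NANOG gave way to the neural markers PAX6, SOX1 and HES5. POU5F1 (chr6:31164337-31180731), the central pluripotency factor, had 1094, 1091 and 1111 CPM in the hESC libraries and 13.4, 16 and 12.9 CPM in the neuroectoderm libraries. NANOG (chr12:7787794-7799146) had 153, 151 and 146 CPM in hESCs and 0.640, 0.930 and 0.673 CPM in neuroectoderm. The stages did not overlap for either gene, which also held for most genes (7816 lower and 11069 higher of 22049 tested). The log2 fold changes of neuroectoderm over hESC were -6.49 ± 0.0398 (SE, adjusted p = 2.92e-55) and -7.85 ± 0.0761 (adjusted p = 3.06e-48) by the quasi-likelihood test of edgeR, adjusted by the Benjamini-Hochberg method, on 3 libraries a stage. PAX6 (chr11:31784779-31817961), the homeodomain factor that marks human neuroectoderm, went the opposite way, from 0.526, 0.221 and 0.261 CPM to 494, 497 and 486 CPM. HES5 (chr1:2528745-2530263), a Notch target of neural progenitors, had counts of 3, 1 and 1 in hESCs and 168, 163 and 175 CPM in neuroectoderm. The log2 fold change of PAX6 was 10.31 ± 0.0696 (edgeR, adjusted p = 5.39e-54), and HES5 was at least 1573-fold higher in neuroectoderm, against a floor of 3 counts per library. Each SE was derived from the F statistic. It is too small where a large change meets few counts at a stage, as for NANOG and PAX6.

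SOX2 (chr3:181711925-181714436), shared by both states, rose from 199, 198 and 199 CPM to 483, 492 and 479 CPM, a log2 fold change of 1.08 ± 0.0257 (edgeR, adjusted p = 9.99e-34). SOX1, the SoxB1 factor restricted to neural cells, rose from 0.263, 0.517 and 0.457 CPM to 64.4, 66.1 and 66.6 CPM. CDH1 (E-cadherin) fell from 197, 195 and 193 CPM to 3.44, 2.79 and 3.68 CPM, and CDH2 (N-cadherin), which neural epithelium uses, rose from 48.8, 42.5 and 44.7 CPM to 618, 624 and 616 CPM. DNMT3B, the de novo DNA methyltransferase of pluripotent cells, fell from 2402, 2424 and 2402 CPM to 206, 209 and 209 CPM. LIN28A, an RNA-binding protein of early embryonic cells, was not called, with 1976, 1901 and 1900 CPM in hESCs and 1520, 1532 and 1517 CPM in neuroectoderm. The eye field and forebrain factors SIX3 and LHX2 were still low at day 5. SIX3 had 2 counts in each hESC library and 2.44, 3.21 and 2.96 CPM in neuroectoderm, at least 26.8-fold higher. LHX2 had 0.451, 0.369 and 0.261 CPM in hESCs and 0.80, 1.27 and 1.17 CPM in neuroectoderm, and its call was lost in DESeq2 and in a test against a fold of 2. In bulk RNA, fewer cells of a type and less RNA per cell cannot be told apart.

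**Figure D1:**
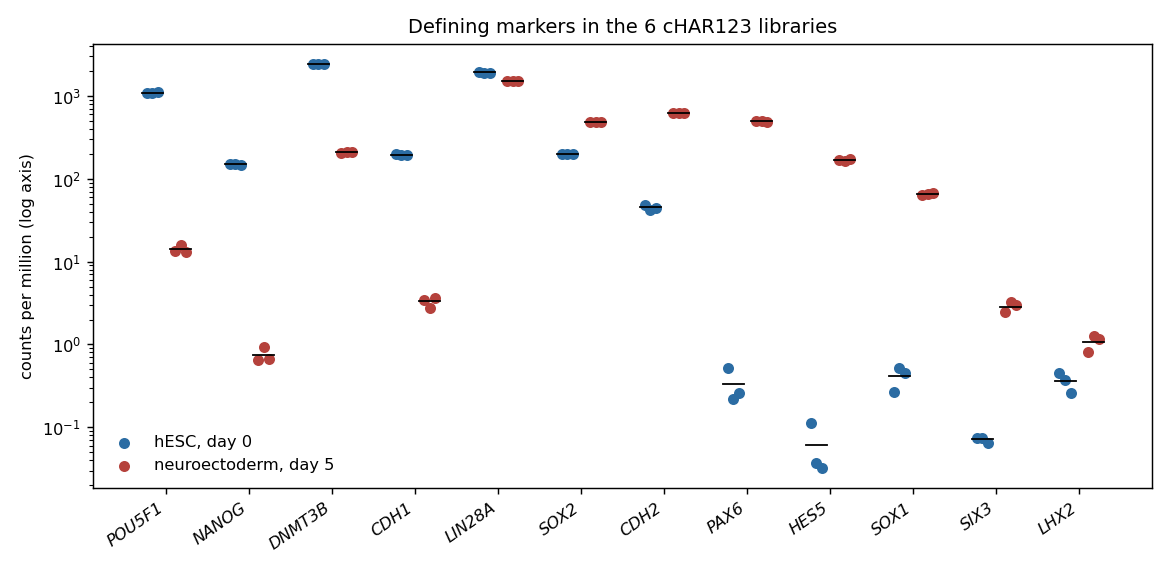
CPM (log axis) of 12 defining markers in each of the 3 cHAR123 hESC libraries and 3 cHAR123 neuroectoderm libraries, one point per library, with the mean as a black bar. The points of a stage lie almost on top of one another, POU5F1, NANOG, DNMT3B and CDH1 sit lower in neuroectoderm, and PAX6, HES5 and SOX1 rise from near 0 to 492, 168 and 65.7 CPM on average.

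Across the genome, 22049 genes passed the filter on low counts. Of these, 4832 were higher in neuroectoderm (21.9% of genes tested) and 4576 were lower (20.8%), at an adjusted p under 0.01 and a change of more than 1 on the log2 scale. These shares are the background for every list count of the stage change below. A further 7998 genes passed the adjusted p with a smaller change, and 4643 genes did not pass it. The median log2 fold change over all genes was 0.04. Scaling by library totals alone moved that median to 0.245 and the calls to 5947 higher and 3851 lower, so changes are given relative to the median under TMM scaling, which equalises the bulk of genes between libraries. CPM values are on library totals, so they can rise a little where the fitted change does not. Large changes were more often losses: 1230 genes fell by more than 3 on the log2 scale and 905 rose by as much. The fallen genes also carried more of the RNA, since they held 27.6% of all counts in hESCs and 10.2% in neuroectoderm, whereas the risen genes went from 3.38% to 15.6%. Of the risen genes 371 had at most 3 counts in every hESC library, and of the fallen genes 449 had at most 3 counts in every neuroectoderm library.

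Of 15019 protein-coding genes tested, 2408 rose (16%) and 3438 fell (22.9%), with a median log2 fold change of -0.14. Of 4095 long non-coding RNA genes, 1669 rose (40.8%) and 592 fell (14.5%), with a median of 0.74. The remaining 2935 genes, among them pseudogenes, gave 755 higher and 546 lower. These shares are descriptions, and how far the lower counts of non-coding genes bear on them was not tested.

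**Figure D2:**
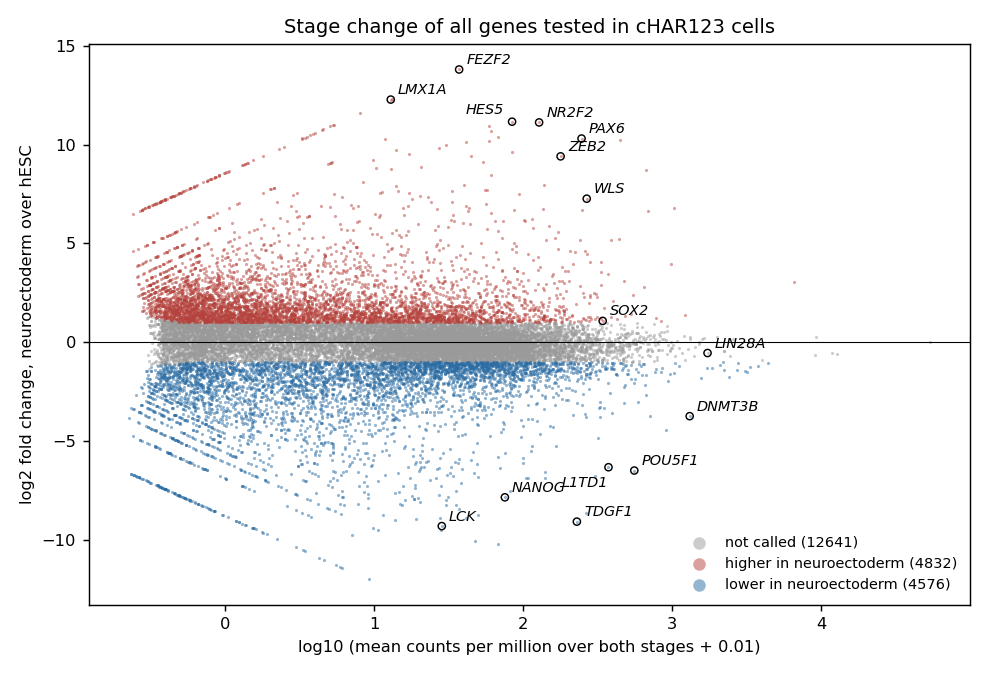
Log2 fold change of neuroectoderm over hESC against log10 of the mean CPM for the 22049 genes tested in cHAR123 cells, with the 4832 genes called higher in red, the 4576 called lower in blue and the others in grey. PAX6, HES5, FEZF2 and NR2F2 stand at the top, TDGF1, LCK and NANOG at the bottom, and LIN28A lies among the grey points.

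The 10 increases ranked highest by fitted change, among genes of at least 10 CPM, were mostly in transcription factors of the developing brain. For genes under the floor of 3 counts the fitted change depends on the prior count, so this order is not one of size, and PAX6 has a larger measured fold than several of the bounds below. FEZF2, a zinc finger repressor of the forebrain, had 0 counts in the 3 hESC libraries and 75.7, 72.9 and 74.6 CPM in neuroectoderm, at least 695-fold higher. NR2F1 and NR2F2 (COUP-TFI and COUP-TFII), orphan nuclear receptors of the developing brain, reached 117 and 256 CPM on average. NR2F1 was at least 1095-fold higher, and NR2F2, with counts of 5, 0 and 3 in hESCs, had a log2 fold change of 11.12 ± 0.0981 (edgeR, adjusted p = 1.01e-49). With so few counts in hESCs the SE of NR2F2 is too small. The other 7 of the 10 were HES5, MAB21L2 (an eye and brain regulator, at least 245-fold), LMX1A (a roof plate and midbrain factor, at least 242-fold), BARHL2 (a forebrain homeobox factor, at least 151-fold), SP5 (a WNT target, at least 99.9-fold), the adhesion molecule CNTN6 (at least 98.6-fold) and the antisense RNA ZFHX4-AS1 (at least 94.9-fold). All of these had at most 3 counts in every hESC library, apart from NR2F2.

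The 10 decreases ranked highest by fitted change, with the same limit, mixed Nodal co-receptor genes, stem cell non-coding RNAs and genes of varied function. TDGF1 (Cripto), the co-receptor of Nodal, fell from 465, 451 and 456 CPM to 0.80, 1.31 and 0.807 CPM, a log2 fold change of -9.08 ± 0.0607 (edgeR, adjusted p = 4.10e-54). Its copy TDGF1P3 went from 57.9, 54.4 and 54.9 CPM to 0.160, 0.0423 and 0.0448 CPM, a value that is uncertain because the near-identical genes could share reads. LINC02700 fell from 94.3 to 0.0996 CPM on average, LINC01844 was at least 154-fold lower and LINC00458 at least 87.3-fold lower. LCK, a kinase best known from T cells, had 55.3, 58.6 and 56.6 CPM in hESCs and at most 3 counts in each neuroectoderm library, at least 447-fold lower. LAD1 (ladinin, of basement membranes) was at least 218-fold lower and the X-linked kinase NRK at least 112-fold lower. GAL, the neuropeptide galanin, fell from 38.1 to 0.0854 CPM and RARRES2 (chemerin) from 82.2 to 0.195 CPM.

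Of 28 pluripotency factors all 28 were tested, 22 fell and 2 rose, with a median log2 fold change of -3.40, or -3.04 with genes under the floor at their bounds. L1TD1, an RNA-binding protein of hESCs, fell from 736 to 10.6 CPM and ZFP42 (REX1) from 187 to 7.64 CPM. PRDM14, a repressor that guards the undifferentiated state, fell from 62.2, 59.8 and 61.2 CPM to 0.60, 0.676 and 0.762 CPM. The genes that rose were SOX2 and OTX2, both also neural, and OTX2 (chr14:56799905-56816693) went from 28.8, 25.9 and 28.0 CPM to 528, 552 and 534 CPM. Besides LIN28A, the members not called were LIN28B (131 and 179 CPM), SALL4 (337 and 616 CPM) and KLF4 (2.01 and 3.47 CPM). FOXD3 (chr1:63322567-63325128), a forkhead factor of both hESCs and neural crest, fell from 35.9, 35.6 and 36.0 CPM to 12.8, 13.9 and 12.6 CPM, a log2 fold change of -1.65 ± 0.0599 (edgeR, adjusted p = 6.24e-27). All 10 non-coding RNAs of pluripotent cells fell, with a median of -7.23, or -5.54 at the bounds. ESRG, the most abundant of them, fell from 602, 598 and 599 CPM to 6.44, 5.96 and 6.46 CPM, and MIR302CHG, the host of the miR-302 cluster, from 220 to 5.59 CPM.

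Promoter sequence was searched for 3 sets of letters on both strands, the octamer ATGCAAAT bound by POU-domain factors and ACAAAG and CCATTGT, forms of the core that SOX factors bind. RefSeq promoters (GRCh38.p14, the 250 bases before the start) were matched by symbol for 13268 of the 22049 genes tested. ATGCAAAT was present in 1.68% of promoters of risen genes, 1.88% of fallen genes and 1.25% of genes not called. ACAAAG was present in 10.5%, 9.73% and 9.07%, and CCATTGT in 2.10%, 1.78% and 1.25%. Over all 35116 promoters of the table the shares were 1.63%, 13.7% and 2.62%. The promoters below were chosen, after their values were seen, because they hold a match and belong to genes that changed: NANOG (chr12:7789152-7789401, plus strand) and GDF3 (chr12:7695776-7696025, minus strand) fell, and SOX2 (chr3:181711675-181711924, plus strand) and HES5 (chr1:2530264-2530513, minus strand) rose. Each is written 5′ to 3′ on the strand of its gene with the matching letters in capitals:
NANOG: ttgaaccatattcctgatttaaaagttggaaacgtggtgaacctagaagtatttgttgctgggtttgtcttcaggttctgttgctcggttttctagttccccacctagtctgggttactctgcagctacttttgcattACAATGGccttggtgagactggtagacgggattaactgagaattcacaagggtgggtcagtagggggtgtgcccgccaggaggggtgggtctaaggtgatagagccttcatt
GDF3: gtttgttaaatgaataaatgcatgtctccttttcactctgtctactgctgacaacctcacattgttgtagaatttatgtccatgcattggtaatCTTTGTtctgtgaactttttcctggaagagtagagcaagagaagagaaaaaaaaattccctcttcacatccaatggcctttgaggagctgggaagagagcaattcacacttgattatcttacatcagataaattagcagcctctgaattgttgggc
SOX2: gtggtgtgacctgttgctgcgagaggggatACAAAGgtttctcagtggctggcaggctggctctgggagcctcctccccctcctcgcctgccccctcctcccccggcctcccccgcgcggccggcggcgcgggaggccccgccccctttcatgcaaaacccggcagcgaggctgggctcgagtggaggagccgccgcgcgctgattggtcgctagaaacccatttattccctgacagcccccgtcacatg
HES5: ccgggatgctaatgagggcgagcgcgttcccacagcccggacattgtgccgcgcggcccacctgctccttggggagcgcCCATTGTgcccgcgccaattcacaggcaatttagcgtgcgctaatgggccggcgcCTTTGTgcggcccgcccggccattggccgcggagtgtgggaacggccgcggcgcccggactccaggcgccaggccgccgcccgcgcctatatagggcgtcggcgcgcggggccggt
In NANOG the capitals are CCATTGT on the opposite strand, beginning 112 bases before the start. GDF3, a Nodal-related ligand that had 6.61, 7.31 and 6.62 CPM in hESCs and 0 counts in neuroectoderm, holds ACAAAG on the opposite strand 151 to 156 bases before the start. SOX2 holds ACAAAG as written at 215 to 220 bases, and HES5 holds CCATTGT as written at 165 to 171 bases and ACAAAG on the opposite strand at 111 to 116 bases. Matches lie before genes that rose and genes that fell, and a match of letters shows no binding.

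Most genes of the early neural plate rose. Of 32 genes tested, 27 rose and 1 fell, with a median log2 fold change of 4.32. SOX21, which acts beside the SoxB1 factors, went from 0.879 to 185 CPM, the POU factor POU3F2 (BRN2) from 0.760 to 112 CPM, LIX1 from 0.0601 to 82.5 CPM and the zinc finger gene ZNF521 from 15.7 to 432 CPM. The intermediate filament genes NES and VIM were already high in hESCs, and rose from 486 to 1190.2 CPM and from 95.1 to 532 CPM. PROM1 (CD133) was the member that fell, from 86.6 to 20.7 CPM. SOX3, SOX4 and ZIC2 were among the 4 not called, at 26.1 and 35.3, 502 and 428, and 219 and 260 CPM in hESCs and neuroectoderm.

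Regional lists were read next. Of 16 forebrain and eye field genes tested, 13 rose and 2 fell, with a median of 6.29. LHX5 rose from 0.0751, 0.295 and 0.131 CPM to 111, 103 and 109 CPM, and EMX2, a dorsal forebrain factor, from 0.225, 0.0738 and 0.0326 CPM to 89.6, 91.2 and 88.2 CPM. OTX1 rose from 2.15 to 268 CPM. HESX1 and FZD5 were the members that fell, from 2.54 to 1.02 CPM and from 227 to 41.8 CPM.

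Of 12 midbrain and hindbrain genes tested, 9 rose and 1 fell, with a median of 2.96. WNT1 (chr12:48978322-48982620), a ligand of the dorsal midline and the midbrain-hindbrain boundary, had at most 2 counts in each hESC library and 21.2, 21.1 and 19.6 CPM in neuroectoderm, at least 193-fold higher. PAX2 reached 11.8, 12.5 and 12.1 CPM and IRX1 rose from 0.675 to 66.5 CPM. GBX2, of the anterior hindbrain, was at least 10.2-fold lower. None of the 39 HOX genes, which mark hindbrain and spinal cord, was tested, since the highest count of any in the 6 libraries was 6. Ventral genes were likewise near 0: SHH, the floor plate signal, had at most 4 counts in a library and NKX2-1, of the ventral forebrain, had 0 in all 6.

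Of 19 neural plate border and neural crest genes tested, 16 rose and 3 fell, with a median of 3.72, or 3.35 at the bounds. PAX3 (chr2:222199887-222298998), a border specifier, rose from 0.225, 0.258 and 0.0653 CPM to 170, 164 and 171 CPM. WLS, which carries WNT proteins out of the cell, rose from 3.16, 3.54 and 2.35 CPM to 534, 532 and 526 CPM. TFAP2B rose to 26.9, 24.9 and 25.5 CPM, ZIC1 to 35.6 CPM and the neural crest factor SOX10 from 4.18 to 35.4 CPM. The 3 that fell were FOXD3, ETS1 (73.6 to 19.8 CPM) and SOX8 (21.1 to 9.24 CPM). TWIST1, of migrating crest and mesenchyme, had 0.284 CPM in hESCs and 0.185 CPM in neuroectoderm and was not tested.

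Cells of other lineages were looked for with 4 further lists. Few genes of each were tested, and over all genes tested 21.9% rose and 20.8% fell. Surface ectoderm and placode genes gave 5 higher and 6 lower of 15 tested, and their summed level went from 1124 to 1143 CPM in hESCs down to 351 to 356 CPM in neuroectoderm. TP63 was at 0.114 and 0.0865 CPM, while KRT18, KRT8, EPCAM and GRHL2, which hESCs express as epithelial cells, fell. The 5 members that rose were GRHL3 (0.924 to 5.96 CPM), EYA1 (2.0 to 6.47 CPM), DLX3 (0.314 to 1.18 CPM), GATA2 (0.335 to 0.967 CPM) and DLX6 (at least 8.75-fold higher). Mesoderm genes gave 2 higher and 4 lower of 8 tested, with KDR, a VEGF receptor, falling from 112 to 10.3 CPM. TBXT was at 0.144 and 0.0149 CPM, and ACTA2 rose from 0.207 to 12.9 CPM. Endoderm genes gave 2 higher and 3 lower of 5 tested. SOX17 had a mean of 0.0250 CPM in hESCs and 0 in neuroectoderm, and CXCR4, which neural progenitors also express, rose from 0.837 to 50.2 CPM. Amnion and trophoblast genes gave 1 higher and 2 lower of 6 tested, and CDX2 was at 0.0248 and 0 CPM.

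**Figure D3:**
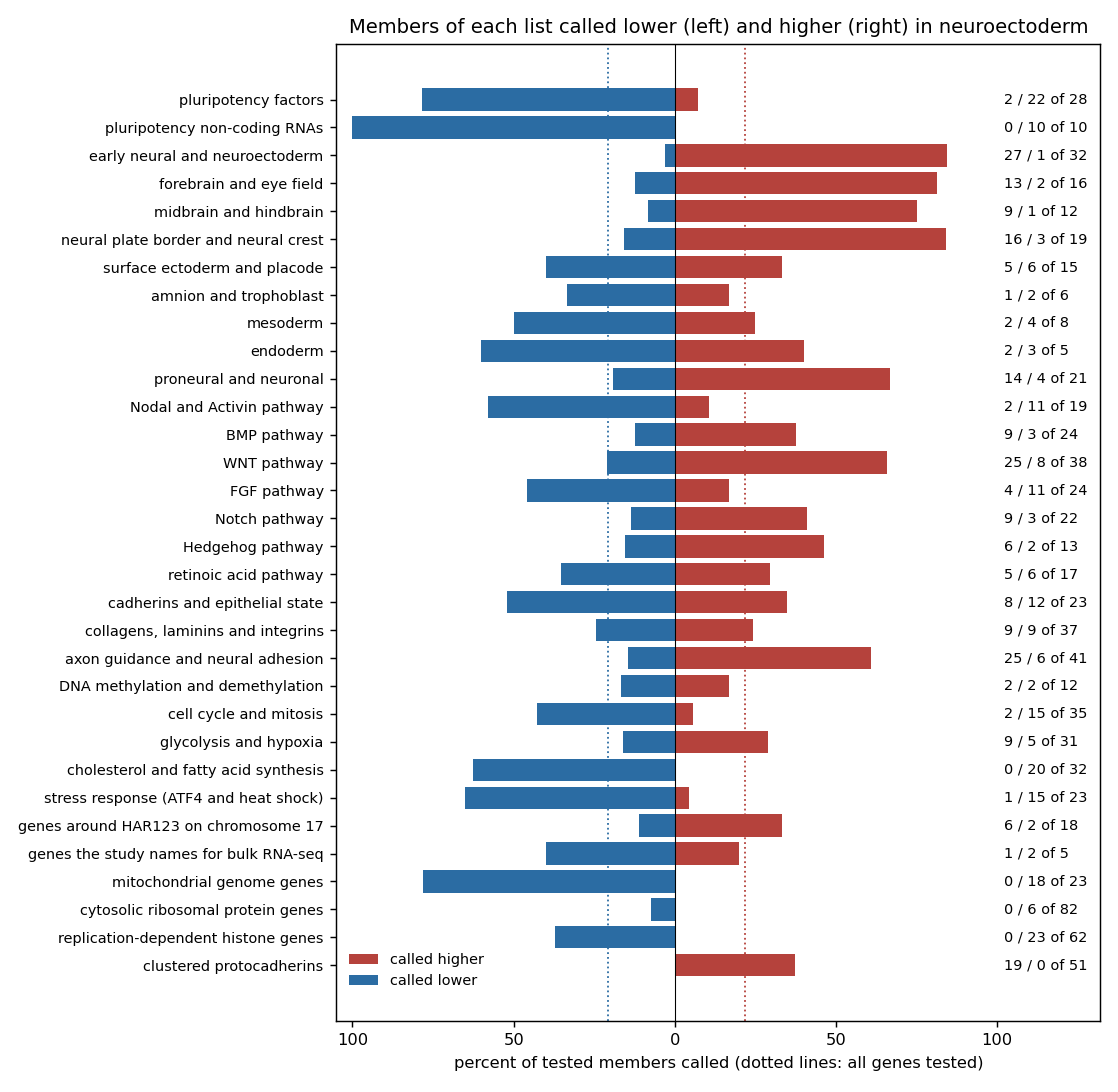
Percent of tested members of each gene list called higher (red, to the right) and called lower (blue, to the left) in cHAR123 neuroectoderm, with the counts written at the right and dotted lines at the 21.9% and 20.8% of all genes tested. The early neural, forebrain and neural plate border lists reach far to the right, and the pluripotency lists, the mitochondrial genome and cholesterol synthesis reach far to the left.

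Few neuronal genes were abundant after 5 days, although most were called. Of 21 proneural and neuronal genes tested, 14 rose and 4 fell, with a median of 3.71. The proneural factors NEUROG1 and NEUROG2 had 0 counts in hESCs and 2.78 and 2.57 CPM on average in neuroectoderm, at least 25.9-fold and 24-fold higher. NEUROD4 rose from 0.0742 to 41.0 CPM, STMN2, of growing axons, from 0.381 to 20.5 CPM and NHLH1 from 0.955 to 22.4 CPM. TUBB3 and GAP43 were not called, at 5.91 and 9.11 CPM and at 12.3 and 17.1 CPM. RBFOX3 (NeuN) fell from 27.1 to 3.43 CPM and SYP from 12.9 to 5.78 CPM.

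Guidance and adhesion molecules changed widely. Over all genes tested, 21.9% rose and 20.8% fell. Of 41 axon guidance and neural adhesion genes tested, 25 rose and 6 fell, with a median of 1.5. The Eph receptors EPHA4 and EPHA7 rose from 11.4 to 472 CPM and from 14.1 to 396 CPM, and the netrin receptor DCC from 1.77 to 56.4 CPM. The adhesion molecule CNTN1 fell from 17.5 to 0.905 CPM and SEMA6A from 580 to 159 CPM. Of 51 clustered protocadherins, which give neurons their surface identity, 19 rose and 32 were not called, with a median of 0.75, and the largest change was in PCDHGB6, from 9.37 to 45 CPM. Their exons share sequence at the 3′ end, so the level of a single member is uncertain.

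Members of the Nodal and Activin pathway, which SB431542 blocks, fell, while none of the 3 receptors named below was called. Of 19 genes tested, 11 fell and 2 rose, with a median of -4.25, or -3.36 at the bounds. The ligand NODAL (chr10:70431936-70447951) had 12.4, 12 and 12 CPM in hESCs and at most 3 counts in each neuroectoderm library, at least 95.2-fold lower. Its feedback inhibitor LEFTY2 had 21.8, 25.0 and 21.5 CPM in hESCs and was at least 179-fold lower, and LEFTY1 fell from 19.3 to 0.358 CPM. The co-factor FOXH1 fell from 83.6, 89.5 and 89.7 CPM to 1.68, 1.69 and 1.52 CPM, and the SMAD-induced repressors SKIL and SMAD7 from 286 to 17.3 CPM and from 29.3 to 3.91 CPM. The receptors ACVR1B (33.5 and 49.9 CPM), ACVR2A (16.9 and 24.9 CPM) and ACVR2B (367 and 404 CPM) and the transducer SMAD2 (150 and 263 CPM) were not called. FST, an Activin antagonist, rose from 3.09 to 32.7 CPM and SMAD3 from 30.8 to 105 CPM.

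Of 24 FGF pathway genes tested, 11 fell and 4 rose, against 20.8% and 21.9% of all genes tested, with a median of -0.82. DUSP6, a phosphatase induced by ERK, fell from 197, 195 and 199 CPM to 3.80, 4.18 and 3.95 CPM, a log2 fold change of -5.83 ± 0.0533 (edgeR, adjusted p = 3.52e-49). The feedback inhibitor SPRY4 fell from 318, 323 and 320 CPM to 9.33, 10.1 and 9.55 CPM and the target ETV4 from 115 to 4.99 CPM. The feedback genes SPRY1, DUSP4 and SPRED1 were not called, at 37.0 and 24.5, 16.8 and 10.9, and 65.3 and 76.3 CPM. FGF19 fell from 9.96 to 0.0880 CPM. FGF2, the ligand of stem cell media, fell from 104.5, 100.1 and 99.6 CPM to 52.9, 56.5 and 57.2 CPM, a call that was lost with library totals (log2 fold change -0.87 in place of -1.07) and in a test against a fold of 2. FGFR1 was not called, at 492 and 528 CPM (log2 fold change -0.10 under TMM scaling), FGFR4 fell from 99.8 to 10.6 CPM, and FLRT3 rose from 0.678 to 86.1 CPM.

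Several BMP ligands and antagonists rose, while BMP targets were divided. Of 24 genes tested, 9 rose and 3 fell, with a median of 0.51, against 21.9% and 20.8% of all genes tested. BMP2 rose from 3.12, 2.84 and 2.84 CPM to 42.9, 45.4 and 41.1 CPM, BMP5 from 0.0615 to 6.03 CPM and the roof plate ligand GDF7 from 0.182 to 15.2 CPM. BMP4 was not called, at 3.38, 3.14 and 3.65 CPM and 2.28, 2.70 and 2.69 CPM. The antagonist NOG, whose protein was also in the medium, rose from 0.266 to 5.43 CPM. Among the ID genes, which BMP signalling induces, ID1 fell from 37.8 to 17.8 CPM, ID3 was not called (72.0 and 66.6 CPM), and ID2 and ID4 rose from 8.64 to 31.2 CPM and from 3.68 to 63.1 CPM. The decoy receptor BAMBI fell from 19.8 to 1.68 CPM.

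Of 38 WNT pathway genes tested, 25 rose and 8 fell, against 21.9% and 20.8% of all genes tested, with a median of 2.09. The WNT list was the longest of the 7 pathways, and library totals left 4 of its genes lower. WNT7B (chr22:45920366-45977162) rose from 0.338, 0.369 and 0.196 CPM to 121, 118 and 125 CPM and WNT5B from 2.30 to 134 CPM. The nuclear factor LEF1 rose from 0.601, 0.295 and 0.392 CPM to 56.1, 49.7 and 51.8 CPM, the feedback target AXIN2 from 19.3 to 86.2 CPM and the potentiator RSPO2 from 0.617 to 31.9 CPM. Among receptors, FZD3 rose from 79.2 to 514 CPM and FZD5 and FZD7 fell from 227 to 41.8 CPM and from 606 to 231 CPM. The secreted inhibitor SFRP5 fell from 2.86 to 0.0941 CPM, and SFRP1 and SFRP2 were not called, at 488 and 635 CPM and 385 and 236 CPM.

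In the Notch pathway 9 of 22 genes rose and 3 fell, with a median of 0.76, against 21.9% and 20.8% of all genes tested. The ligands DLL1 and JAG1 rose from 2.62 to 227 CPM and from 51.6 to 430 CPM, the Fringe enzyme LFNG from 21.1 to 345 CPM, and the non-canonical ligand DLK1 from 0.587 to 82.2 CPM. NOTCH1, NOTCH2 and NOTCH3 were not called, at 337 and 340, 210 and 322, and 351 and 379 CPM. Of the HES targets, HES5 and HES4 (1.01 to 78.1 CPM) rose, HES1 was not called (13.2 and 12.7 CPM) and HES6 fell from 35.3 to 11.9 CPM.

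Of 13 Hedgehog genes tested, 6 rose and 2 fell, with a median of 0.75. The co-receptors BOC and GAS1 rose from 7.21 to 318 CPM and from 4.51 to 169 CPM, and the receptor PTCH1 and the repressor-type factor GLI3 from 38.1 to 185 CPM and from 68.8 to 595 CPM. GLI1, the activator that is itself a Hedgehog target, fell from 17.2, 17 and 16.2 CPM to 0.400, 0.169 and 0.224 CPM. Retinoic acid genes were divided, with 5 higher and 6 lower of 17 and a median of -0.69, where 21.9% and 20.8% of all genes tested rose and fell. DHRS3 and CYP26A1, which lower the retinoic acid level, fell from 19.3 to 1.87 CPM and from 3.37 to 0.661 CPM, CYP26B1, of the same function, rose from 0.376 to 2.44 CPM, and the binding protein CRABP1 rose from 37.3 to 159 CPM.

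**Figure D4:**
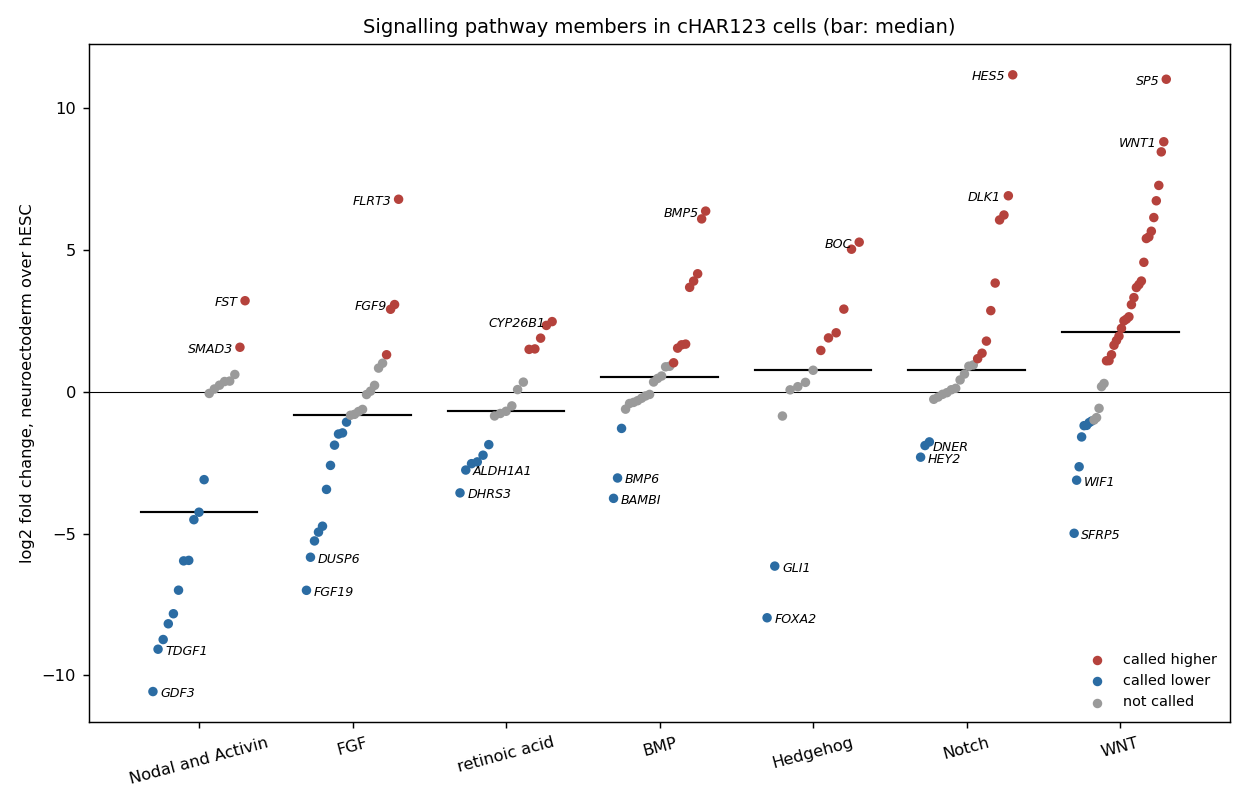
Log2 fold change of neuroectoderm over hESC for the tested members of 7 signalling pathways in cHAR123 cells, one point per gene (red called higher, blue called lower, grey not called) with the median as a black bar. The Nodal and Activin points lie mostly below 0, with a median of -4.25, and the WNT points mostly above 0, with a median of 2.09.

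Several epithelial genes of hESCs fell and neural cadherins rose. Of 23 cadherin and epithelial genes tested, 8 rose and 12 fell, against 21.9% and 20.8% of all genes tested, with a median of -1.12. The splicing regulators ESRP1 and ESRP2 fell from 138 to 1.97 CPM and from 71.6 to 1.22 CPM, CLDN7 from 51.4 to 0.508 CPM and CLDN6, a claudin of pluripotent cells, from 491 to 40.9 CPM. EPCAM and CDH3 (P-cadherin) fell from 133 to 2.72 CPM and from 188 to 11.6 CPM. The repressors ZEB2 and ZEB1 rose from 0.453 to 356 CPM and from 0.756 to 65.3 CPM, and SNAI1 was not called (6.87 and 5.66 CPM). CDH6 and CDH8 rose from 0.782 to 52.8 CPM and from 3.60 to 52.5 CPM. Of 37 collagen, laminin and integrin genes, 9 rose and 9 fell, shares near the 21.9% and 20.8% of all genes tested. COL2A1 rose from 48.7 to 337 CPM and ITGB5 fell from 398 to 36.0 CPM.

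Of 12 genes of DNA methylation and demethylation 2 rose and 2 fell, shares not above the 21.9% and 20.8% of all genes tested. TET2, which oxidises methylcytosine, rose from 9.17, 9.85 and 9.95 CPM to 89.5, 94.7 and 87.6 CPM, opposite to DNMT3B. DNMT1, DNMT3A and TET1 were not called, at 314 and 199, 250 and 184, and 252 and 315 CPM.

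Some cell cycle genes fell, and more were not called. Of 35 tested, 15 fell and 2 rose, against 20.8% and 21.9% of all genes tested, with a median of -0.72. CCNE1, the cyclin of S phase entry, fell from 38.3 to 9.34 CPM, and the replication helicase genes MCM3, MCM5 and MCM6 from 406 to 163, 339 to 144 and 189 to 97.2 CPM. The kinase inhibitors CDKN1C and CDKN1B rose from 10.3 to 62.0 CPM and from 17.7 to 65.5 CPM. MKI67 was not called, at 690 and 508 CPM. Of 62 replication-dependent histone genes, 23 fell and 39 were not called, with a median of -0.91, and with the mHAR123-labelled neuroectoderm columns H4C13 was called higher. H1-1, a linker histone gene, fell from 37.9, 38.1 and 36.5 CPM to 0.280, 0.211 and 0.359 CPM. Histone genes are near-identical in sequence, so the level of a single member, H4C13 included, is uncertain.

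Lipid synthesis genes were mostly lower. Of 32 cholesterol and fatty acid genes tested, 20 fell and 12 were not called, with a median of -1.09. FASN, the fatty acid synthase, fell from 2339 to 781 CPM. SREBF1 and SREBF2, the transcription factors of the pathway, were not called, at 119 and 93.2 and 388 and 330 CPM. The change of medium cannot be told apart from the stage for these genes.

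Stress genes were lower too, with 15 of 23 called lower and 1 higher and a median of -1.26. The amino acid transporter SLC7A5 fell from 599, 621 and 605 CPM to 24.1, 25.9 and 23.2 CPM, the stress factor ATF4 from 343 to 142 CPM, its target CHAC1 from 31.2 to 3.59 CPM and the chaperone HSPA8 from 1487.5 to 575 CPM. The member that rose was DDIT4, an mTOR inhibitor, from 26.7 to 372 CPM. Among 31 glycolysis and hypoxia genes 9 rose and 5 fell, shares not far from the 21.9% and 20.8% of all genes tested, with a median of 0.04. SLC2A1 (GLUT1) rose from 256 to 801 CPM, BNIP3 from 14.4 to 144 CPM and NDRG1 from 2.71 to 31.2 CPM, HK1 fell from 395 to 109 CPM, and GAPDH and ENO1 were not called. Of 23 genes of the mitochondrial genome 18 fell and 5 were not called, with a median of -1.39, and their summed level went from between 43690 and 44510 CPM to between 23060 and 23400 CPM. Cytosolic ribosomal protein genes gave 6 lower and 76 not called of 82, with a median of 0.03.

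Around HAR123 on chromosome 17, 6 of 18 genes tested rose and 2 fell, with a median of 0.16, where 21.9% and 20.8% of all genes tested rose and fell. SMG6 itself (chr17:2059839-2303785), the nuclease of nonsense-mediated decay that hosts HAR123, had 67.6, 65.0 and 66.7 CPM in hESCs and 157, 146 and 153 CPM in neuroectoderm. Its log2 fold change of 0.99 ± 0.0347 (edgeR, adjusted p = 1.70e-27) was below the fold needed, and it was called with library totals (1.2) and without neuroectoderm replicate 2 (1.02). HIC1, which lies beside it on the opposite strand and overlaps it, had counts of 2, 5 and 6 and then 10, 18 and 8 and was not tested. Its reads and those of SMG6 cannot be told apart if strand was ignored in counting. RTN4RL1, a Nogo receptor relative, rose from 0.191 to 20.1 CPM, SRR (serine racemase) from 1.42 to 7.59 CPM, and SERPINF2 fell from 2.43 to 0.552 CPM. A list was made of 7 of the genes that the study names for its bulk RNA-seq, and the study names others too. It was chosen on these samples and so is no independent evidence of its direction. Of 5 tested 1 rose and 2 fell, with a median of -0.62, or 0.27 with the mHAR123-labelled columns. FZD1 rose from 3.78 to 20.5 CPM, FOXD3 fell as above, SMG6 and BMP4 were not called, and HIC1 and EPHA5 were too low to test.

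The same stage change was compared with that of the other genotypes, which share no library with it. Across genes, which are not independent replicates, the log2 fold changes of cHAR123 cells correlated with those of mHAR123 cells at r = 0.973 (slope 0.997, 21543 genes), of hHAR123 cells at r = 0.965 (slope 0.964, 21506 genes) and of HAR123-KO cells at r = 0.934 (slope 0.939, 21032 genes). Of the 4832 genes that rose in cHAR123 cells, 84.6% also rose in mHAR123, 88.2% in hHAR123 and 75.0% in HAR123-KO cells, which are 86.7%, 77.6% and 76.6% of the genes that rose there. Whether a change differed was tested directly as an interaction of genotype and stage over 12 libraries. These 3 tests share the cHAR123 libraries. With 2 clones per genotype and the clone of each library not known, differences between genotypes and between clones cannot be told apart. Each difference is signed, the log2 fold change of cHAR123 minus that of the other genotype, so a positive one can be a greater rise or a lesser fall and a negative one a lesser rise or a greater fall. The change differed for 186 of 23329 genes from hHAR123 (0.797%; 56 positive and 130 negative), for 1274 of 23164 genes from HAR123-KO (5.5%; 503 positive and 771 negative) and for 18 of 23410 genes from mHAR123 (0.0769%; 11 positive and 7 negative).

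Against unedited cells FOXD3 was the border gene with the smallest adjusted p. FOXD3 started at 35.6 to 36.0 CPM in cHAR123 hESCs and 37.4 to 41.4 CPM in hHAR123 hESCs and ended at 12.6 to 13.9 CPM in cHAR123 neuroectoderm but 2.28 to 2.69 CPM in hHAR123 neuroectoderm. The FOXD3 log2 fold changes of -1.65 and -4.26 differed by 2.57 ± 0.119 (edgeR, adjusted p = 9.64e-22). Of 19 neural plate border and neural crest genes 5 passed with a positive difference, and 6 did with the mHAR123-labelled columns. Over all genes tested 0.797% passed in either direction. FOXD3 and ETS1 fell less in cHAR123 cells, PAX7, RELN and SOX10 rose more, and the median difference over the list was 0.67. This list was chosen with earlier results of these data known. It holds FOXD3, which the study reports as regulated by hHAR123. It also holds PAX3, WLS, CDH18 and RBFOX1, the study's markers of a progenitor cluster that accumulated in HAR123-KO cells. Counts over the list are therefore no independent evidence. PAX7 reached 11.6 to 12.3 CPM in cHAR123 and 1.84 to 1.98 CPM in hHAR123 neuroectoderm (difference 2.28 ± 0.450, edgeR, adjusted p = 0.000231), and RELN, the secreted glycoprotein reelin, 14.9 to 15.3 and 1.96 to 3.24 CPM (difference 2.44 ± 0.290, edgeR, adjusted p = 1.76e-08). SOX10 and ETS1 differed by 1.46 and 1.28. PAX3 had a negative difference that missed the threshold (-2.61 ± 0.911, edgeR, adjusted p = 0.0438). TFAP2B (-1.49), DLX5 (-1.16), CDH18 (-0.67) and WLS (-0.23) were also negative and not called, and the remaining members were positive. GDF7 rose by 6.09 in cHAR123 and 1.24 in hHAR123 cells, but this difference came from both ends, since it was at 0.0738 to 0.359 CPM in cHAR123 hESCs and 2.10 to 3.06 CPM in hHAR123 hESCs. H1-1 fell more in cHAR123 than in hHAR123 cells, with log2 fold changes of -7.23 and -3.86 (difference -3.41), and TRIM58 had -2.77 and 0.40 (difference -3.21). SOX2 and PAX6 did not pass this test (differences -0.05 ± 0.038 and -0.68 ± 0.377).

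Against HAR123-KO cells the border list differed in the other direction. Of 19 tested, 12 passed with a negative difference, with a median over the list of -2.07, and 12 did with the mHAR123-labelled columns. Over all genes tested 5.5% passed in either direction. The limit on the choice of this list holds here too. FOXD3 rose by 2.13 in HAR123-KO cells, to 187 to 188 CPM, a difference from cHAR123 of -3.79 ± 0.065 (edgeR, adjusted p = 3.40e-46). RELN reached 193 to 200.3 CPM in HAR123-KO neuroectoderm (difference -3.95 ± 0.251) and PAX7 121 to 127 CPM (difference -4.53 ± 0.50). SNAI2, ETS1 and SOX10 differed by -3.92, -3.40 and -3.01. Forebrain and eye field genes went the opposite way, with 6 positive and 1 negative differences of 19 tested and a median difference of 1.31. The forebrain list was also chosen with earlier results of these data known. SOX2 rose in cHAR123 cells and had 203 to 206 CPM in HAR123-KO hESCs and 157 to 159 CPM in HAR123-KO neuroectoderm, a difference of 1.64 ± 0.037 (edgeR, adjusted p = 2.70e-40). OTX2 differed by 1.11. MIR9-1HG, the host of miR-9-1, rose from 4.61 to 6.16 CPM to 20.6 to 21.6 CPM in cHAR123 cells and fell to 0.474 to 1.08 CPM in HAR123-KO cells (difference 4.70 ± 0.202, edgeR, adjusted p = 3.50e-27). PAX6 did not pass this test (difference 0.09 ± 0.578), and HES5, at 163 to 175 and 19.0 to 21.3 CPM in neuroectoderm, missed the threshold (difference 3.01 ± 1.07, edgeR, adjusted p = 0.0231) with at most 0.17 CPM in a hESC library of either genotype.

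Against mHAR123 cells few genes differed, and 7 of the 10 differences named for this comparison changed sign with the neuroectoderm columns exchanged. The exchange swaps the groups compared in neuroectoderm, so for genes that differ there a change of sign is largely built in. With the columns as labelled, WNT4 rose from 1.18 to 1.76 CPM to 8.79 to 10.3 CPM in cHAR123 cells and from 1.42 to 1.91 CPM to 4.27 to 5.54 CPM in mHAR123 cells, a difference of 1.2 ± 0.231 (edgeR, adjusted p = 0.000928). The call was lost without mHAR123 hESC replicate 3 (difference 1.08), and with the columns exchanged the difference was -0.85. NPTX1 fell less in cHAR123 than in mHAR123 cells (difference 1.57 ± 0.155), and this was -0.17 with the columns exchanged. FOXD3 passed the adjusted p with a difference of -0.67 ± 0.10 (edgeR, adjusted p = 1.71e-05), which was below the fold required.

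**Figure D5:**
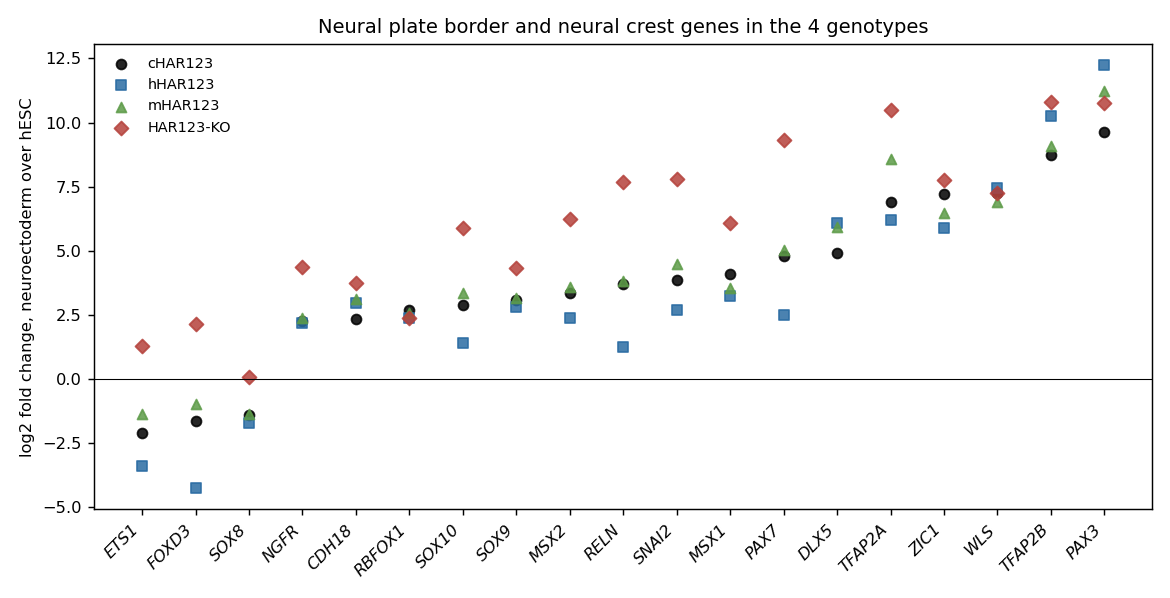
Log2 fold change of neuroectoderm over hESC of 19 neural plate border and neural crest genes in cHAR123 (black circles), hHAR123 (blue squares), mHAR123 (green triangles) and HAR123-KO (red diamonds) cells, ordered by cHAR123, one point per gene and genotype where tested. For FOXD3 the order is hHAR123 (-4.26), cHAR123 (-1.65), mHAR123 (-0.98) and HAR123-KO (2.13), and the red diamonds lie highest for FOXD3, RELN, PAX7, SNAI2, ETS1 and SOX10.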

How the data were processed

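RNA from H9 cells of 4 genotypes at 2 stages was sequenced after ribosomal RNA depletion with strand-directional libraries, and the authors aligned the reads to GRCh38 with STAR (2.5.2b in the submitters' processing notes) and made the deposited raw counts per Ensembl gene with featureCounts. Whether strand was used in counting is not given in the sources used here. An entry broken over 3 lines, that of ANK2, was left out, and 61551 genes were used. Samples were grouped by their labels. From the counts, edgeR 4.0.16 (R 4.3.3, limma 3.58.1) was run with filterByExpr, TMM scaling and the quasi-likelihood F test, with Benjamini-Hochberg adjustment over all genes tested. Genes were called at an adjusted p under 0.01 and a log2 fold change over 1 in size. Standard errors were taken as |log2 fold change|/√F. These are too small for large changes of genes with few counts at a stage, such as NANOG, PAX6, TDGF1 and NR2F2. CPM is the count over the library total without length. A gene with at most 3 counts in every library of a stage was taken to be under a floor of 3 counts per library (0.107 CPM in hESCs and 0.127 CPM in neuroectoderm on average), folds against it are lower bounds, and its fitted change depends on the prior count and is no bound. Differences between genotypes were tested as interactions over 12 libraries. The fits were tested on simulated data. Replicates differed by more than sampling noise (chi-square per degree of freedom 1.54 to 4.01 in cHAR123 libraries), so none was counted as a copy. Deviations of same-numbered libraries from their stage means correlated at -0.00526 to 0.00248. This cannot exclude a pairing, and the labels do not say what a replicate number marks. Members, gene lists and rules were chosen with earlier results of these data known. Genes named are 12 defining markers, up to 3 called members of each of 33 lists with the largest changes at 1 CPM or more, the 10 largest changes in each direction at 10 CPM or more, the 5 largest differences per genotype and direction, the genes that the study names for bulk RNA-seq, and members needed as examples, chosen after their values were seen. Alternatives were DESeq2 1.42.0, other scalings, filters and thresholds, a replicate block, one fit of all 24 libraries, thinned counts, leaving out each library, and the mHAR123-labelled neuroectoderm columns. The comparison of the libraries labelled cHAR123 and mHAR123 within each stage was added after seeing the data. Python 3.11.15 was used for tables and figures. Some genes of the lists are counted but not reported here by name.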

Additional observations from a re-analysis of the deposited data

Results flagged for a closer look

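The stage change of 186 genes differed between cHAR123 and hHAR123 cells, that of 1274 genes between cHAR123 and HAR123-KO cells, and that of 18 genes between cHAR123 and mHAR123 cells, each by the interaction of genotype and stage in edgeR. The 3 counts share the cHAR123 libraries, and their causes were not tested.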

How the results depend on the processing

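Without one library the calls of the stage change ran from 4811 to 4927 higher and 4671 to 4813 lower, and a replicate block gave 4773 higher and 4559 lower. DESeq2 gave 4312 and 4938, no filter 5568 and 5572, and a test against a fold of 2 gave 3238 and 3641. With the mHAR123-labelled neuroectoderm columns 90.2% of the 9408 calls were kept and 1, H4C13, was opposite. Counts of differences in stage change moved more. Against hHAR123, positive differences (cHAR123 minus the other) numbered 93 and negative ones 284 at an adjusted p under 0.05, and DESeq2 gave 71 negative (it gave no adjusted p for 26 of the 186 genes). Against mHAR123, positive differences numbered 3 in DESeq2, 18 without a filter, 7 with the replicate block, 42 with the mHAR123-labelled columns and 29 at an adjusted p under 0.05. Negative differences numbered 43 with those columns, 21 at an adjusted p under 0.05, and 4 to 9 without one library, with 4 lacking cHAR123 neuroectoderm replicate 1 and 9 lacking cHAR123 hESC replicate 1. The replicate block gave 48 and 107 against hHAR123 and 492 and 761 against HAR123-KO, and what the replicate numbers mark is not known. The mHAR123-labelled columns turned the median of the list of genes taken from the study to 0.271, the H4C13 fold change to 4.28, the ZNF385D-AS1 difference from hHAR123 to 2.02, and the differences from mHAR123 of H4C13 to 13.38, AP1M2 to 1.41, HPDL to 3.42, MARVELD3 to 0.99, TMEM117 to -2.56, NPTX1 to -0.17 and WNT4 to -0.85. For these differences the exchange of columns swaps the groups compared in neuroectoderm, and the cause of the other changes was not tested. Among fold changes of named genes under all alternatives, 2695 kept their direction and side of the threshold and 5 lost the call (LHX2, FGF2 and ZNF385D-AS1). On TMM-scaled library sizes 197 CPM values of named genes moved and 163 did not. Named differences between genotypes were less stable, with 626 kept, 61 calls lost, many on leaving out 1 library, and 8 reversed. The depth of each library, at least 22303658 counts, limits genes near the floor of 3 counts, whose folds are bounds.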
